A study of Oryza sativa with 20 samples.

Results

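The group IIa WRKY genes of rice are 4 of the 92858 gene identifiers listed in these data, and they were chosen by identifier. They are WRKY28 (OS06G0649000, chromosome 6), WRKY62 (OS09G0417800, chromosome 9), WRKY71 (OS02G0181300, chromosome 2) and WRKY76 (OS09G0417600, chromosome 9). All 4 were above 0 in each of the 20 libraries and passed the filter on low values. RNA-seq was performed on leaves of 5-week-old rice plants, and the larvae were those of the rice leaf folder Cnaphalocrocis medinalis, a caterpillar that folds rice leaves and scrapes off the green tissue. The larvae were in instar 3 and had been starved for 2 h. At 0 h the leaf was enclosed in a Parafilm bag with no insect. At 1, 6, 12 and 24 h it had been enclosed in the same kind of bag with 1 larva for that time before a common harvest. Each time point had 4 libraries, and leaves of 5 plants were merged in each. The 0 h leaves were thus the only control of every feeding time, and no wounded leaf without a larva was compared here.

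WRKY proteins are transcription factors that bind the W-box, a short DNA element with the core TTGAC, in the promoters of many defence genes. Group IIa members carry a single WRKY domain and a leucine zipper through which they can pair with themselves and with each other. In rice they are known mainly as repressors that hold back pathogen defence, and their own transcripts rise quickly after attack or elicitor treatment. WRKY62 was found as a partner of the receptor kinase XA21 and dampens resistance to bacterial blight, and WRKY76 represses pathogenesis-related and phytoalexin genes. WRKY28 lowers basal resistance to blast fungus. WRKY71 is known as a repressor of gibberellin signalling in aleurone cells and, when overexpressed, raises resistance to bacterial blight. The RefSeq annotation (assembly ASM3414082v1) names 3 of the 4 genes, all except WRKY28, and places WRKY76 and WRKY62 next to each other on chromosome 9 with 0 annotated genes between them.

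Values are FPKM, sequenced fragments scaled by the length of the transcript and by all fragments on genes, so levels of different genes can be compared per length. The libraries held 17796546 to 22090162 fragments on genes. WRKY71 rested on 250 to 4554 fragments per library, WRKY28 on 78 to 1582, WRKY76 on 91 to 870 and WRKY62 on 19 to 316. Counting error alone is 22.9% at 19 fragments and 1.48% at 4554, and the spread between replicates was wider than that at 0 h, where the SD was 64.3% of the mean for WRKY71 and 140% for WRKY62. Of the 0 h libraries, replicate 4 was the highest for 3 of the 4 genes and for 6 of the 9 pathway genes named below, and 286 of 24058 tested identifiers were over 2-fold above the other 0 h libraries in it (67 to 138 in those 3). Of the 6 h libraries, replicate 1 was the lowest for all 4 genes and for 7 of the 9 pathway genes, and 196 identifiers were over 2-fold below the other 6 h libraries in it (62 to 91 in those 3). Calls of the 4 genes against 0 h that rest on these libraries are given with and without them. In leaf tissue, fewer cells of one type and less RNA per cell cannot be told apart.

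WRKY71 and WRKY28 were higher than in unfed leaves at 6 h, by 3.54-fold and 4.05-fold in mean FPKM. They were at 1.00-fold and 1.01-fold at 12 h, and stood at 4.82-fold and 2.67-fold at 24 h. The mean of WRKY28 at 0 h rests largely on replicate 4. In median FPKM, WRKY28 was at 5.92-fold at 6 h, 1.56-fold at 12 h and 3.89-fold at 24 h. WRKY76 and WRKY62, the neighbours on chromosome 9, had their highest mean FPKM at 12 h, at 1.67-fold and 1.47-fold, and neither passed the test against 0 h at any feeding time. In limma-trend on log2(FPKM + 1), 2 of the 4 genes rose at 6 h (WRKY71 and WRKY28) and 1 at 24 h (WRKY71). The threshold was an FDR under 0.05, the p adjusted over 24058 identifiers by the Benjamini-Hochberg method. The share of all tested identifiers called higher was 18.6% at 6 h and 12.7% at 24 h, and called lower 5.02% and 8.03%. These shares depend on scaling: with upper-quartile factors 10.3% were called higher and 10.2% lower at 6 h, and 10.3% and 11.5% at 24 h, while the calls of the 4 genes stayed 2 and 1. At 1 h and at 12 h, 0 of the 4 were called (limma-trend), against 1.77% of identifiers called higher and 1.29% called lower at 1 h, and 5.76% and 8.63% at 12 h. With upper-quartile factors these were 1.58% and 2.06% at 1 h and 6.95% and 7.45% at 12 h. At an unadjusted p under 0.05 the count among the 4 genes was 1 at 1 h and 0 at 12 h, and limma-voom on the recovered fragments called 0 at both.

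**Figure D1:**
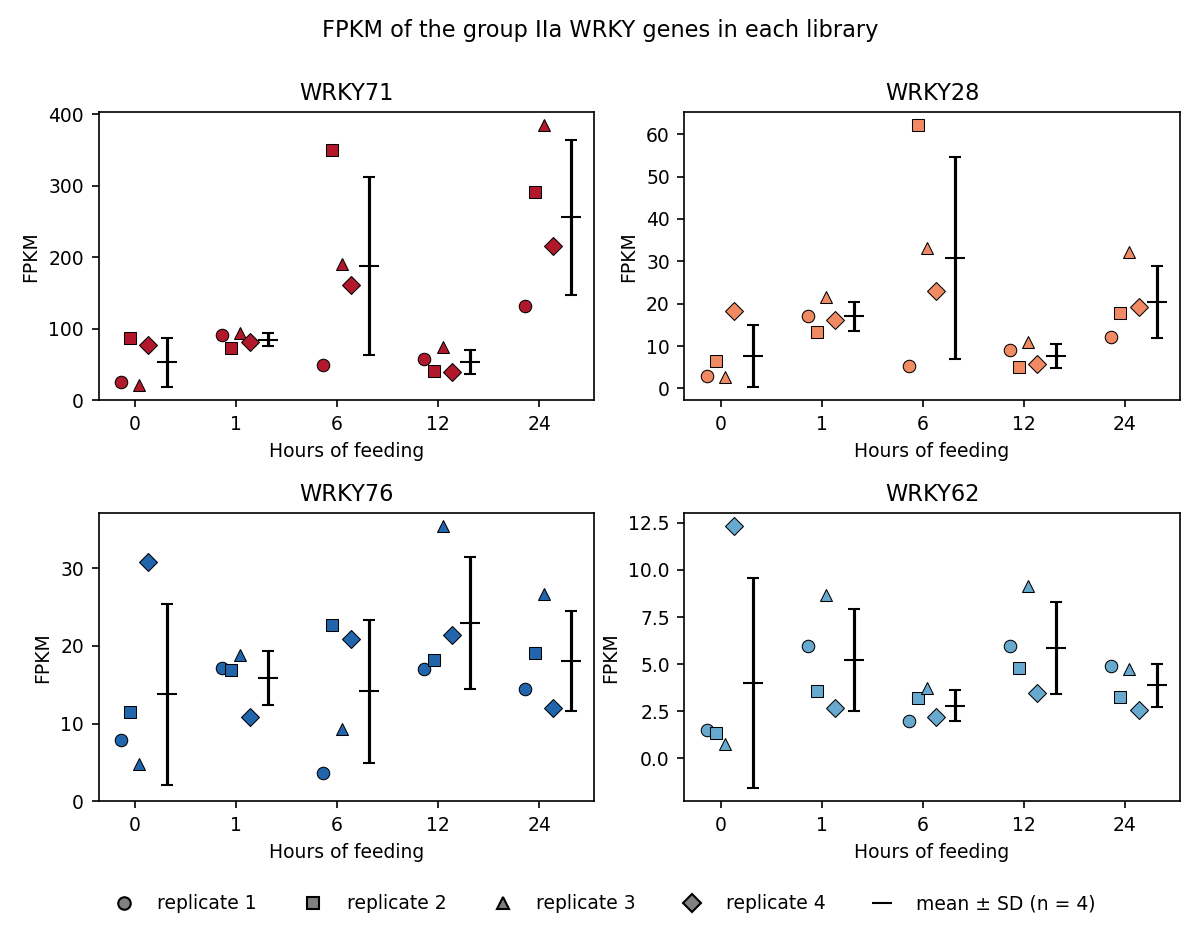
FPKM (vertical axis) of each gene in each of the 20 libraries against hours of feeding (horizontal axis); symbols mark the replicate and the black bar gives mean ± SD of 4 libraries. WRKY71 and WRKY28 are high at 6 and 24 h and low at 12 h, while WRKY76 and WRKY62 are highest at 12 h by mean; 0 h replicate 4 (diamond) and 6 h replicate 1 (circle) stand away from their groups.

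WRKY71 was the most abundant of the 4 in 20 of 20 libraries. Its FPKM at 0 h was 25.8, 87.2, 21.7 and 77.7 in replicates 1 to 4. At 1 h it was 91.3, 73.5, 94.0 and 81.3. These libraries were close to each other, with an SD of 11.1% of the mean, and 2 of them were above all 0 h libraries. At 6 h the values were 49.9, 351, 191 and 161, so that 3 of 4 libraries were above all 0 h libraries and replicate 1 lay within their range. At 12 h they were 58.3, 40.6, 74.5 and 39.9, entirely within the range of the unfed leaves. At 24 h they were 131, 291, 385 and 216, and all 4 were above all 0 h libraries, a separation found for 14.1% of tested identifiers.

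After 1 h of feeding, the log2 fold change of WRKY71 against 0 h was 0.92 (SE 0.51, limma-trend FDR = 0.38), and after 6 h it was 1.76 (SE 0.51, FDR = 0.019). It came to 0.21 after 12 h (FDR = 0.83) and to 2.39 after 24 h (SE 0.51, FDR = 0.0027). The exact two-sided permutation test of 4 libraries against 4 gave p = 0.029 at 24 h, the smallest p it allows, and p = 0.086 at 6 h. The call at 24 h was made in 20 of 20 fits that left out 1 library, with an FDR of at most 0.013. The call at 6 h was made in 16 of 20. The FDR rose to 0.069 when 0 h replicate 1 was dropped, to 0.070 for 0 h replicate 3, to 0.077 for 6 h replicate 2 and to 0.050 for 6 h replicate 3. With 0 and 6 h fitted alone it was 0.092. Without 6 h replicate 1 the log2 fold change at 6 h was 2.29 (FDR = 0.0022), and without 0 h replicate 4 it was 2.02 (FDR = 0.015).

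WRKY28 had a similar course at a lower level. Its FPKM at 0 h was 2.98, 6.51, 2.65 and 18.3 in replicates 1 to 4, with replicate 4 far above the others. At 1 h it was 17.1, 13.3, 21.6 and 16.2, so that all 4 libraries were above 3 of the 0 h libraries and 1 was above replicate 4. At 6 h it was 5.17, 62.1, 33.2 and 23.0. As for WRKY71, replicate 1 was low and the other 3 libraries were above all unfed leaves. At 12 h it was 9.07, 4.99, 10.9 and 5.76, and at 24 h 12.1, 17.7, 32.3 and 19.1. The 12 h libraries thus overlapped those at 0 h, and 2 of the 24 h libraries were above all of them.

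WRKY28 had a log2 fold change of 1.39 after 1 h (SE 0.57, limma-trend FDR = 0.21) and of 1.81 after 6 h (SE 0.57, FDR = 0.029). The values were 0.30 for 12 h (FDR = 0.79) and 1.57 for 24 h (SE 0.57, FDR = 0.060). The rise at 6 h was called in 15 of 20 fits that left out 1 library. The FDR was 0.096 when 0 h replicate 1 or 3 was dropped, 0.11 for 6 h replicate 2, 0.078 for 6 h replicate 3 and 0.056 for 6 h replicate 4. With 0 and 6 h fitted alone it was 0.13. Without 6 h replicate 1 the log2 fold change at 6 h was 2.46 (FDR = 0.0021), and without 0 h replicate 4 it was 2.32 (FDR = 0.0083). The exact permutation test of 4 libraries against 4 gave p = 0.086 at 6 h and at 24 h. The change at 24 h passed the test when 0 h replicate 4 was dropped, with a log2 fold change of 2.08 (FDR = 0.013), and when 6 h replicate 1 (FDR = 0.018) or 6 h replicate 2 (FDR = 0.040) was dropped.

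WRKY76 had FPKM values of 7.95, 11.5, 4.79 and 30.8 at 0 h, where replicate 4 was again far above the rest. At 1 h the values were 17.1, 16.9, 18.8 and 10.8, and at 6 h 3.71, 22.7, 9.26 and 20.9. The 6 h libraries spanned both sides of the 1 h range. At 12 h they were 17.0, 18.1, 35.4 and 21.4, all above 0 h replicates 1, 2 and 3, and 1 of them above replicate 4. At 24 h they were 14.5, 19.1, 26.7 and 12.1. The log2 fold change was 0.47 after 1 h (limma-trend FDR = 0.70) and 0.07 after 6 h (FDR = 0.94), where it became -0.056 with median-of-ratios and -0.058 with upper-quartile scaling. It was 0.94 after 12 h (SE 0.49, FDR = 0.23) and 0.61 after 24 h (FDR = 0.43).

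WRKY62 was the least abundant of the 4 in 20 of 20 libraries. Its FPKM at 0 h was 1.5, 1.34 and 0.744 in replicates 1, 2 and 3 and 12.3 in replicate 4, the highest value of this gene in any library. At 1 h it was 5.96, 3.58, 8.69 and 2.65, and at 6 h 1.98, 3.22, 3.72 and 2.21. At 12 h it was 5.99, 4.79, 9.15 and 3.45, and at 24 h 4.89, 3.25, 4.76 and 2.58. Each of the 16 feeding libraries was therefore above 0 h replicates 1, 2 and 3 and below replicate 4. The log2 fold change of WRKY62 was 0.76 after 1 h (limma-trend FDR = 0.45), 0.12 after 6 h (FDR = 0.89), 0.94 after 12 h (SE 0.48, FDR = 0.22) and 0.48 after 24 h (FDR = 0.53). At 6 h the mean FPKM was 0.699 times and the median 1.91 times that at 0 h, since the mean at 0 h rests on replicate 4.

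The weight of that library shows in the counts. Without 0 h replicate 4, 1 of the 4 genes was called higher after 1 h, 2 after 6 h, 1 after 12 h and 3 after 24 h (limma-trend, FDR under 0.05). The share of all tested identifiers called higher in that fit was 1.52%, 16.6%, 4.99% and 11.8%. WRKY62 then rose by 1.42 on the log2 scale after 1 h (FDR = 0.025), by 1.59 after 12 h (FDR = 0.0034) and by 1.14 after 24 h (FDR = 0.018), but at 6 h its change of 0.78 was not called (FDR = 0.091). WRKY76 was not called at any feeding time in this fit, with 1.41 at 12 h (FDR = 0.054). With both 0 h replicate 4 and 6 h replicate 1 left out, a fit added with these values in view, the counts were 2, 2, 2 and 4, against 1.65%, 16.5%, 5.17% and 11.9% of all tested identifiers. WRKY76 was then called at 12 h (FDR = 0.014) and at 24 h (FDR = 0.038). What set these libraries apart was not tested, and the labels give no reason to leave either out.

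**Figure D2:**
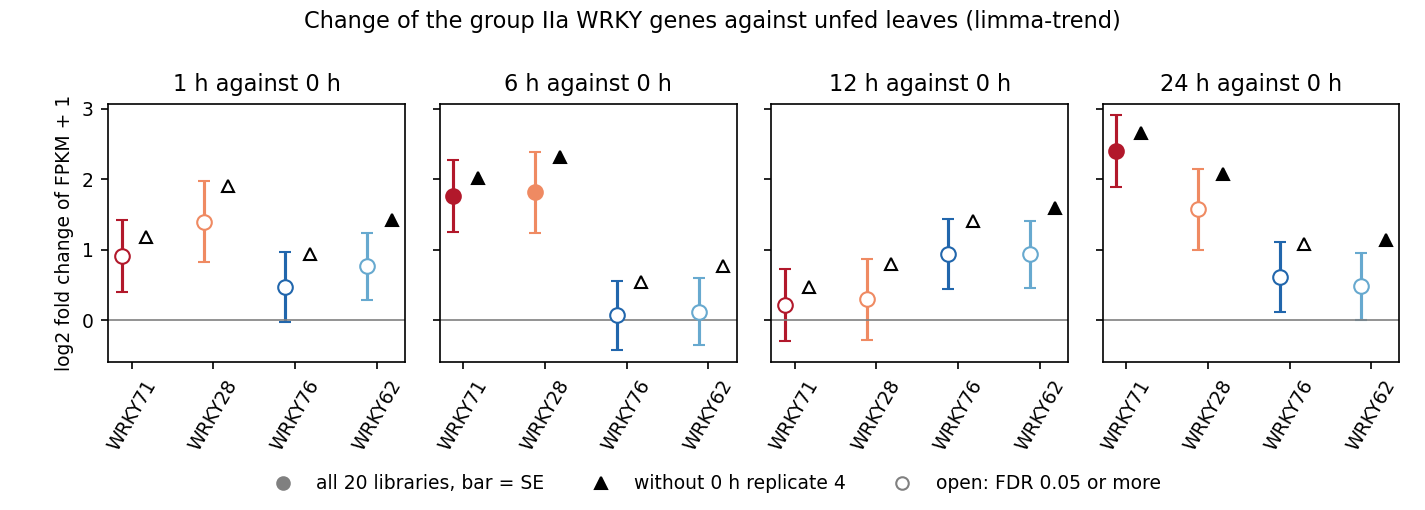
Log2 fold change of FPKM + 1 (vertical axis) of each gene at each feeding time against 0 h; circles with SE bars are from all 20 libraries and triangles from the fit without 0 h replicate 4, with filled symbols for an FDR under 0.05 by limma-trend. With all libraries only WRKY71 and WRKY28 at 6 h and WRKY71 at 24 h are filled, and without 0 h replicate 4 WRKY62 is filled at 1, 12 and 24 h and WRKY28 at 24 h.

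Differences between feeding times do not use the 0 h means, although the fit shares its estimate of spread with the 0 h libraries. From 6 to 12 h, WRKY71 fell by 1.55 on the log2 scale (SE 0.51, FDR = 0.025 by limma-trend) and WRKY28 fell by 1.51 (SE 0.57, FDR = 0.048). Their mean FPKM went from 188 ± 124 to 53.3 ± 16.5 and from 30.9 ± 23.8 to 7.67 ± 2.77 (SD, n = 4). Thus 2 of the 4 genes were called lower and 0 higher, where 27.4% of tested identifiers were called lower and 7.92% higher (14.3% and 13.8% with upper-quartile factors). The fall of WRKY28 was weakly determined, since it was called in 5 of 20 fits without 1 library and was lost with median-of-ratios scaling (FDR = 0.086) and limma-voom (FDR = 0.056). That of WRKY71 was called in 15 of 20. Its FDR reached 0.099, 0.062 or 0.051 when replicate 2, 3 or 4 of the 6 h libraries was dropped. It was 0.060 or 0.066 when replicate 2 or 4 of the 12 h libraries was dropped. Without 6 h replicate 1 the log2 changes were -2.16 for WRKY28 and -2.08 for WRKY71. Over the 20 fits the FDR ranged from 0.0027 to 0.18 for WRKY28 and from 0.0022 to 0.099 for WRKY71. WRKY62 and WRKY76 moved the other way in value, by 0.82 (FDR = 0.20) and 0.87 (FDR = 0.18), and did not pass. WRKY62 was called in 1 of 20 fits without 1 library, that without 0 h replicate 4 (FDR = 0.039). Its difference was still 0.82 in that fit, where the shared estimate of spread changed.

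From 12 to 24 h WRKY71 rose by 2.18 on the log2 scale (SE 0.51, FDR = 0.031 by limma-trend), or 4.80-fold in mean FPKM. Of all tested identifiers, 2.12% were called higher in this step and 0.623% lower (1.14% and 1.21% with upper-quartile factors). For WRKY71 and for WRKY28, all 4 libraries at 24 h were above all 4 at 12 h (exact permutation test, p = 0.029 for both, the smallest p possible). That separation was found for 9.53% of tested identifiers. The log2 difference of WRKY28 was 1.27 (FDR = 0.23 by limma-trend), while WRKY62 had -0.46 (FDR = 0.64) and WRKY76 -0.33 (FDR = 0.76). The call for WRKY71 was made in 14 of 20 fits without 1 library, with an FDR of up to 0.098 in the other 6, in which replicate 1, 2 or 4 of the 12 h libraries or replicate 2, 3 or 4 of the 24 h libraries was dropped.

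Between 1 and 6 h, 0 of the 4 genes were called by limma-trend or limma-voom (also 0 at an unadjusted p under 0.05), against 11.9% of identifiers called higher and 3.97% lower (6.60% and 5.67% with upper-quartile factors). WRKY71 differed by 0.84 on the log2 scale (FDR = 0.28), and by 1.37 (FDR = 0.048) without 6 h replicate 1. Between 6 and 24 h, 0 of 4 were called by either tool (0 at an unadjusted p under 0.05), against 8.11% higher and 16.3% lower (10.6% and 12.0% with those factors). For WRKY71 that difference was 0.64 (SE 0.51) and for WRKY28 -0.24 (SE 0.57), so the levels at 6 and 24 h were not separable at this spread.

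The order of levels was WRKY71 first and WRKY62 last in every library, and WRKY28 and WRKY76 changed places. WRKY76 was above WRKY28 in 8 of 8 libraries at 0 and 12 h. WRKY28 was above WRKY76 in 3 of 4 libraries at 1 h, 4 of 4 at 6 h and 2 of 4 at 24 h. At 0 h the FPKM of WRKY28 was 0.374 to 0.595 times that of WRKY76, and at 12 h 0.269 to 0.534 times. At 6 h it was 1.10 to 3.58 times, a range that overlapped those at 1 h (0.786 to 1.5) and 24 h (0.837 to 1.59). WRKY71 made up a median of 70.1% of the summed FPKM of the 4 genes in unfed leaves, 58.3% after 12 h and 86.1% after 24 h. The median share of WRKY62 was 6.81% at 12 h and 1.05% at 24 h.

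Ratios of 2 genes in the same library do not depend on scaling between libraries, apart from their pseudocount. The FPKM of WRKY71 was 2.52 to 7.58 times that of WRKY76 at 0 h and 4.34 to 7.51 times at 1 h. The range was 7.70 to 20.6 times for 6 h, 1.86 to 3.43 times for 12 h and 9.07 to 17.9 times for 24 h. Every library at 6 and 24 h was thus above every library at the other times, also 6 h replicate 1 (13.5 times), although all 4 genes were low in that library. WRKY28 was 1.04 to 1.67 times WRKY62 at 12 h, below the 2.62 to 19.3 times at 6 h and the 2.48 to 7.42 times at 24 h. At 0 h WRKY28 was 1.49 to 4.85 times WRKY62, which overlapped the ranges at 6, 12 and 24 h. At 1 h it was 2.48 to 6.12 times. These ratios were chosen after the values were seen, and they are given with no test.

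**Figure D3:**
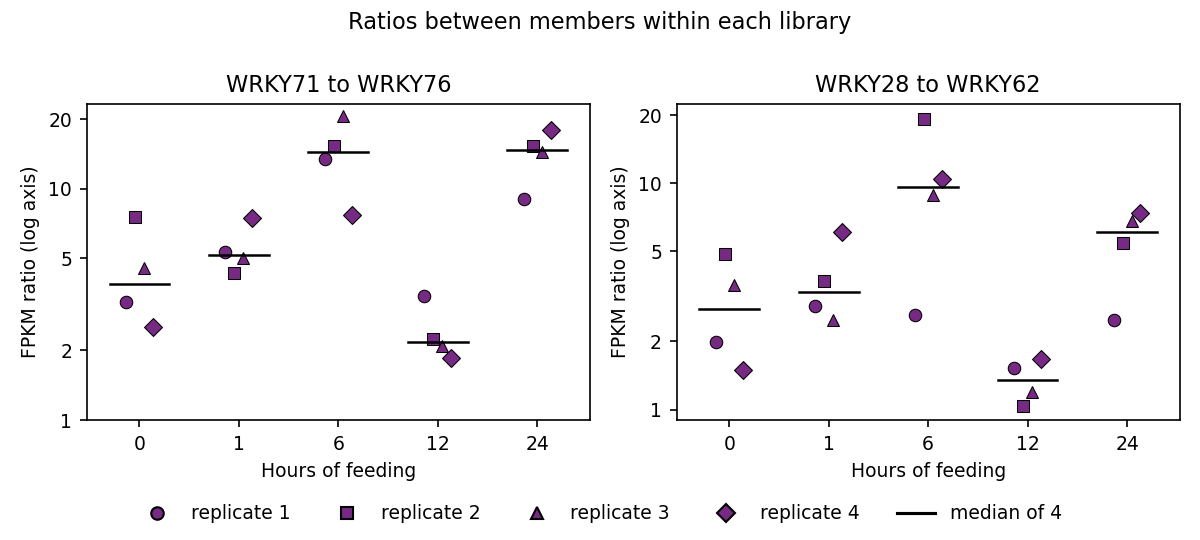
FPKM of WRKY71 over that of WRKY76 (left) and of WRKY28 over WRKY62 (right) in each library, on a log axis, against hours of feeding, with a line at the median of 4 libraries. The ratio of WRKY71 to WRKY76 has medians of 14.4 at 6 h and 14.8 at 24 h and of 2.17 at 12 h, and the points at 12 h lie below those at 6 and 24 h in both panels.

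Within each of both pairs, the ratio was tested directly. For the neighbours WRKY62 and WRKY76, the mean log2 ratio of FPKM + 1 was -1.81 ± 0.48 (SD, n = 4) at 0 h and between -1.94 and -1.52 at the feeding times. For WRKY28 and WRKY71 it was -2.74 ± 0.63 (SD, n = 4) at 0 h, between -2.69 and -2.27 from 1 to 12 h, and -3.56 ± 0.28 (SD, n = 4) at 24 h. In the exact two-sided permutation tests of these 8 comparisons with 0 h, the smallest p was 0.11, for WRKY28 to WRKY71 at 24 h (difference -0.82, adjusted p = 0.69 over the 8). No difference between the members of a pair passed the test, which does not show that they moved alike. In FPKM, WRKY28 was 0.061 to 0.0923 times WRKY71 at 24 h, below every library at 1, 6 and 12 h. Those ranges were 0.181 to 0.229, 0.104 to 0.177 and 0.123 to 0.156. At 0 h the range was 0.0747 to 0.236, which overlapped that at 24 h. These differences of the ratio between feeding times were not tested. With 0 h replicate 2 dropped, the difference of WRKY28 to WRKY71 at 24 h was -1.09. With 0 h replicate 4 dropped, the difference at 1 h was 0.72. The exact permutation test then gave an unadjusted p = 0.029 for both, the smallest p it allows. With all libraries p was 0.11 and 0.17. In each case the dropped library was the only one at 0 h that kept the ranges from separating, so these p-values add no support.

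**Figure D4:**
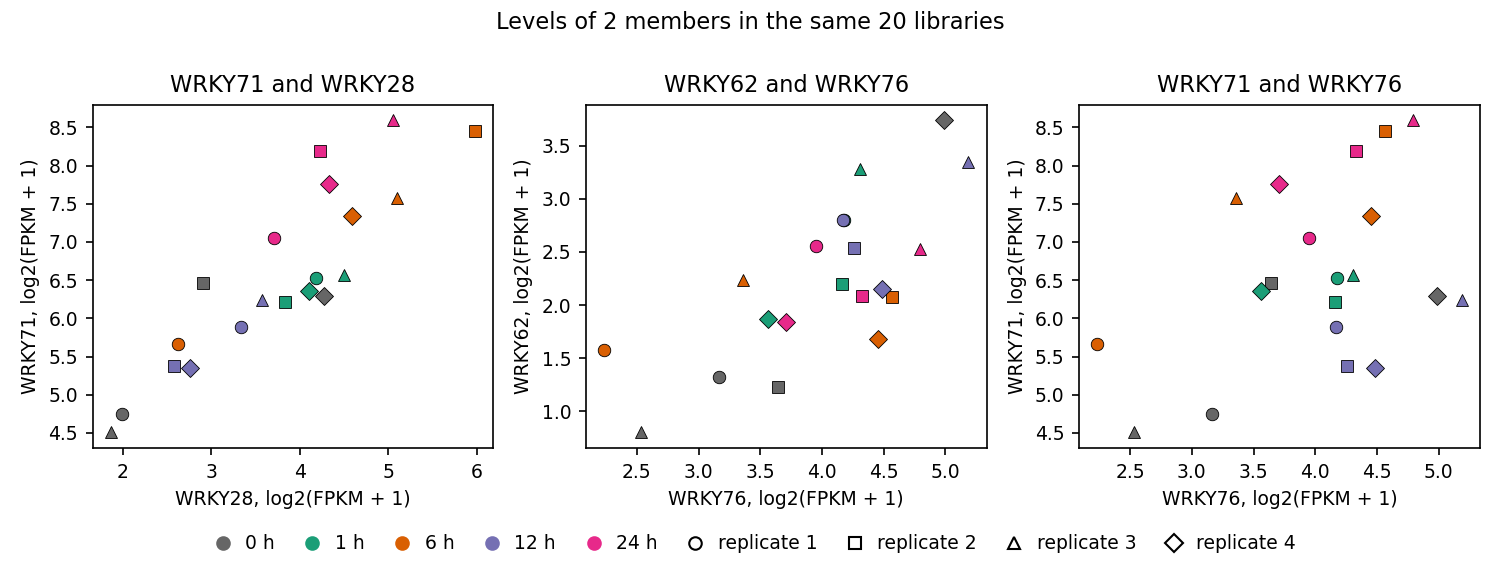
Levels of 2 genes in the same 20 libraries, both axes in log2(FPKM + 1), coloured by time point and with symbols for the replicate. WRKY71 rises with WRKY28 (left), but the 24 h libraries lie above those of 1, 6 and 12 h at like levels of WRKY28. WRKY62 follows WRKY76 more loosely (middle). In WRKY71 against WRKY76 (right) the 6 and 24 h libraries lie mostly above the 12 h libraries at the same level of WRKY76.

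Likeness was described by Pearson's r of log2(FPKM + 1) over the 20 libraries, which share time points in groups of 4 and are therefore not independent. WRKY28 and WRKY71 had r = 0.89 (Spearman's rho 0.89, and r = 0.84 without the 2 libraries farthest from the median of WRKY28). WRKY62 and WRKY76 had r = 0.73 (rho 0.61, and r = 0.61 without 2 libraries). Across the pairs, r was 0.51 for WRKY28 and WRKY76, 0.42 for WRKY71 and WRKY76, 0.40 for WRKY28 and WRKY62 and 0.20 for WRKY62 and WRKY71. Ranked against all tested identifiers, WRKY76 was number 7 in likeness to WRKY62, and WRKY62 number 6 to WRKY76. WRKY71 was number 22 for WRKY28, and WRKY28 number 85 for WRKY71.

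The means over time and the replicates within a time point gave different pictures. Over the 5 means, r was 0.92 for WRKY62 and WRKY76 and 0.89 for WRKY28 and WRKY71, but -0.10 to 0.00 for the 4 combinations across the pairs. After the mean of its time point was taken from each library, r was 0.47 to 0.84 across the pairs, 0.92 for WRKY28 and WRKY71 and 0.67 for WRKY62 and WRKY76. All 4 genes were highest in replicate 3 at 1 h and in replicate 3 at 12 h, and lowest in replicate 3 at 0 h and in replicate 1 at 6 h. No test compared the pairs with each other.

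By mean r with the 4 genes, the most similar of 19875 other identifiers with a mean FPKM of at least 1 was OS10G0536400, with a mean r of 0.73. Its mean FPKM was lowest in unfed leaves, at 67.5, and came to 112 after both 1 and 6 h, 94.4 after 12 h and 130 after 24 h. The next was OS04G0503600 with a mean r of 0.71 and a mean FPKM of 11.3 at 0 h and 15.2 at 24 h. The data give no names for these identifiers.

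Defence signalling genes for which the study's text gives identifiers were set beside the family, 9 in all. They are WRKY53, WRKY24 and WRKY45, the kinase gene MPK3, a calmodulin gene, 3 genes of calcium-dependent protein kinases (CDPKs) and AOC, whose enzyme acts in jasmonate synthesis. The study named them for their response in these samples, so the counts are a description. Of the 9, 2 were called higher after 1 h, 5 after 6 h, 2 after 12 h and 7 after 24 h (limma-trend, FDR under 0.05). The share of all tested identifiers called higher was 1.77%, 18.6%, 5.76% and 12.7% (1.58%, 10.3%, 6.95% and 10.3% with upper-quartile factors). The CDPK gene Os12g0113500 was called lower both at 12 and at 24 h, as were 8.63% and 8.03% of identifiers. The median log2 fold change of the 9 was 0.32, 0.69, 0.29 and 1.00 at 1, 6, 12 and 24 h. That of the 4 group IIa genes was 0.84, 0.94, 0.62 and 1.09. Over all tested identifiers it was 0.01, 0.10, -0.03 and 0.03. The 2 called higher at 1 h were AOC and the calmodulin gene Os03g0319300. That count was 0 when replicate 1, 2 or 3 of the 0 h libraries or replicate 1 or 4 of the 1 h libraries was dropped. The 3 CDPK genes were not called at 1 h by limma-trend. In mean FPKM, Os08g0540400 was at 1.96-fold (FDR = 0.067), Os08g0441100 at 1.80-fold (FDR = 0.10) and Os12g0113500 at 0.52-fold (FDR = 0.062). For each of them, all 4 libraries at 1 h lay outside the 0 h range (exact permutation test, p = 0.029, the smallest possible). The share of all identifiers so separated at 1 h was not counted. With limma-voom, 3 of the 9 were called higher at 1 h and 1 lower.

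WRKY53, a group I WRKY gene known from rice as a brake on mitogen-activated protein kinases, had the course of WRKY71 and WRKY28. Its mean FPKM was 165 ± 54.8 in unfed leaves, 190 ± 26.2 after 1 h, 349 ± 112 after 6 h, 143 ± 39.2 after 12 h and 322 ± 66.9 after 24 h (SD, n = 4). It rose by 1.08 on the log2 scale after 6 h (limma-trend FDR = 0.0054) and by 1.00 after 24 h (FDR = 0.0083), and from 6 to 12 h it fell by 1.27 (FDR = 0.00082). WRKY45, which in rice acts in salicylic acid-dependent defence and lies upstream of WRKY62, had a mean FPKM of 76 ± 32.9 in unfed leaves, 102 ± 12.5 after 12 h and 162 ± 42.4 after 24 h (SD, n = 4). Against 0 h it was called at 24 h alone, with a log2 fold change of 1.13 (limma-trend FDR = 0.0020), a time at which WRKY62 was not called with all libraries. MPK3 rose by 1.41 on the log2 scale after 24 h (limma-trend FDR = 0.0035), and its value after 6 h was 0.82 (FDR = 0.066).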

How the data were processed

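The deposited values are FPKM per gene, calculated by the authors. According to the study's methods and the labels, they trimmed and filtered the reads, aligned them with HISAT2 2.09 to the rice genome build IRGSP-1.0 and counted them per gene with featureCounts 1.5.0-p3. Whether counting used strand is not given in the sources used here.

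No further scaling between libraries was applied. Identifiers entered the fit where 4 or more of the 20 libraries reached an FPKM of 0.5, which left 24058, and log2(FPKM + 1) was fitted with limma-trend (limma 3.58.1, R 4.3.3), with 15 residual degrees of freedom and FDR under 0.05 as the threshold. The pseudocount of 1 understates fold changes of low genes. Whole fragments were recovered for 35755 of 35755 identifiers above 0 (tolerance 0.01 fragments, wider for very high counts), and their totals give the depth of 17796546 to 22090162 fragments per library. Ratios, exact tests and plots used Python 3.11.15, numpy 2.4.6, pandas 2.3.3 and matplotlib 3.10.9.

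Replicates are pools of different plants, so p-values measure the spread between pools. The genes, lists and tests were chosen with earlier results of these data known. Besides the 4 genes, the named genes are the 9 with identifiers in the study's text and the 2 identifiers with the highest mean correlation with the 4. Names came from the series description, the study's text and RefSeq, whose identifiers are of another annotation, so the leaf was not checked against marker genes and other WRKY genes were not counted. Promoter and protein sequences were not analysed here. Alternatives were other pseudocounts, filters, scalings, limma-voom, the compared groups alone, a replicate block and each library left out.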

Additional observations from a re-analysis of the deposited data

Results flagged for a closer look

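In 0 h replicate 4, the FPKM of WRKY62 was 12.3, far from the 0.744 to 1.5 of the other 3 libraries at 0 h, with a gap of 0.935 of the whole range. It was the only value found among the 20 groups of 4 libraries (4 genes at 5 time points), and chance finds about 1 in 20. The same library was high for WRKY28 (18.3) and WRKY76 (30.8), and why was not tested.

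The effect of feeding differed between time points in 3 tests of the difference itself (limma-trend, FDR under 0.05). WRKY71 was lower at 12 than at 6 h (log2 difference -1.55) and higher at 24 than at 12 h (2.18), and WRKY28 was lower at 12 than at 6 h (-1.51). In that order, the calls were made in 15, 14 and 5 of 20 fits without 1 library. Of all tested identifiers, 27.4% were called lower from 6 to 12 h and 2.12% higher from 12 to 24 h. With upper-quartile factors these shares were 14.3% and 1.14%. The call of WRKY28 was also lost under several of the settings below.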

How the results depend on the processing

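Of 256 values for the 4 genes under planned settings other than leaving out a library, 243 kept their direction and their side of the threshold. Most of these belong to comparisons that were not called in the main fit and stayed uncalled. In 10 values a call of the main fit was lost. With the compared groups fitted alone, the log2 change at 6 against 0 h was 1.81 for WRKY28 (FDR = 0.13) and 1.76 for WRKY71 (0.092), neither called. At 12 against 6 h it was then -1.51 for WRKY28 (0.11) and -1.55 for WRKY71 (0.058), both lost, and 0.82 for WRKY62 (0.046), now called. The fall of WRKY28 from 6 to 12 h was also lost with a pseudocount of 0.1 (-1.60), with no filter (-1.51), with median-of-ratios (-1.34) or upper-quartile scaling (-1.35) and with limma-voom (-1.61). The rise of WRKY71 from 12 to 24 h was lost with no filter (2.18, FDR = 0.051). Median-of-ratios scaling moved the median log2 change of all identifiers from 0.10 to 0.00 at 6 against 0 h and from -0.14 to 0.00 at 12 against 6 h. The change of WRKY76 at 6 h turned to -0.056 with median-of-ratios and -0.058 with upper-quartile scaling. The WRKY62 to WRKY76 log2 ratio turned to 0.32 at 12 h and 0.12 at 24 h with a pseudocount of 0.1, and to 0.38 and 0.17 with none. For the 9 pathway genes, the count called higher was 1 at 1 h and 1 at 12 h with no filter, and the count called lower was 1 at 1 h with limma-voom and 0 at 12 h with the groups alone.

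With both 0 h replicate 4 and 6 h replicate 1 left out, a setting chosen after seeing the data, calls were gained by WRKY28 at 1 h (1.90) and 24 h (2.08), WRKY62 at 1 h (1.42), 12 h (1.59) and 24 h (1.14), WRKY76 at 12 h (1.41) and 24 h (1.08) and WRKY71 at 6 against 1 h (1.37), and WRKY76 at 6 against 1 h turned to 0.074. Of the 9 pathway genes, 8 were then called higher at 6 h, against 16.5% of all tested identifiers, and 0 lower at 12 and 24 h.

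Of 640 values with 1 library left out, 585 kept direction and call, and 35 lost a call made with all libraries. Here too, most values belong to comparisons never called with all libraries, so the share kept says little about the calls. Against 0 h, WRKY28 ranged from 1.34 to 2.46 at 6 h and from 1.28 to 2.08 at 24 h, and WRKY71 from 1.36 to 2.29 at 6 h and from -0.12 to 0.53 at 12 h. WRKY62 ranged from 0.44 to 1.42 at 1 h, from -0.20 to 0.78 at 6 h, from 0.61 to 1.59 at 12 h and from 0.16 to 1.14 at 24 h, and WRKY76 from -0.28 to 0.54 at 6 h. At 6 against 1 h, WRKY28 ranged from -0.053 to 1.07, WRKY71 from 0.44 to 1.37 and WRKY76 from -0.70 to 0.074. At 12 against 6 h, WRKY28 ranged from -2.16 to -1.04, WRKY71 from -2.08 to -1.15 and WRKY62 from 0.60 to 1.00. At 24 against 12 h WRKY71 ranged from 1.95 to 2.47, and at 24 against 6 h WRKY28 from -0.89 to 0.23. The WRKY62 to WRKY76 ratio ranged from -0.32 to 0.39 at 6 h, from -0.21 to 0.18 at 12 h and from -0.33 to 0.055 at 24 h. The WRKY28 to WRKY71 ratio ranged from 0.21 to 0.72 at 1 h, from -0.22 to 0.29 at 6 h, from -0.18 to 0.33 at 12 h and from -1.09 to -0.58 at 24 h. Of the 9 pathway genes, 0 to 3 were called higher and 0 to 1 lower at 1 h, 1 to 3 higher and 0 to 1 lower at 12 h, and 0 to 1 lower at 24 h.

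Replicate numbers did not pair the libraries: same-numbered libraries had correlations of -0.17 to 0.24, and 9 of 32 lay nearest to their own number. A replicate block changed no call of the 4 genes, with WRKY71 at 24 h at 2.39 (FDR = 0.0025), and moved the count of all identifiers called higher at 24 h from 3056 to 2955. The cause of these changes was not tested. WRKY62, with as few as 19 fragments in a library, is the gene most limited by depth.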
